A study of Mus musculus with 125 samples.

Results

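Late in NK cell co-culture, 3 of 256400 consensus ATAC-seq peaks were more accessible than in B-ALL alone in cell lines C and D but not in A and B, under a rule of fixed differences. They lie inside Il17ra, Ciao2a and Ntng2, and are called the Il17ra, Ciao2a and Ntng2 peaks. ATAC-seq counts DNA fragments that the transposase Tn5 releases from open chromatin, and a peak's level is given as CPM, its read pairs scaled to a common total per library. The peaks were selected on the mean of log2(CPM + 0.5) over the libraries of a line and arm. Eligible were the 110249 peaks on chromosomes 1 to 19 with a mean of at least 1 CPM. The difference between co-culture at time point 2 (TP2) and B-ALL alone had to reach 0.58 in both C and D and to stay below 0.2 in both A and B. These differences therefore chose the peaks and are given as a description without a test, and the words late gain refer to them. In bulk libraries, more cells with a site open and a more open site per cell cannot be told apart.

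B-ALL stands for acute lymphoblastic leukaemia of the B lineage. All 4 lines descend from bone marrow cells of C57BL/6 mice transformed by the BCR/ABLp185 kinase and carry DNA barcodes with GFP. A shares its parental line with B, and C shares a different one with D, which makes A/B against C/D a contrast of parental lines. Cells were cultured alone (labelled Tumor_only) or with IL-2-activated wild-type NK cells from mouse spleen, and GFP+ cells were sorted before the assay. All lines carry the kinase and the barcodes, and all cultures contained IL-2. The 125 libraries fall into 42 groups of line, experiment and arm, 41 with 3 libraries and 1 with 2. The arms are B-ALL alone, sampled at time point 1 (TP1), and co-culture sampled at TP1 (TP1 NK) or TP2 (TP2 NK). Per the labels TP1 was day 4 and TP2 day 10, or days 6 and 16 in experiment 9.7. The study's own text gives a later day for TP2 than the day 10 of these labels, and the conflict was not resolved here. A and B each have 3 experiments (9.5, 9.6, 9.7). C has a further set labelled 9.5.1 and D one labelled 9.6.1, both called repeats here. This gives 6 combinations of line and experiment for A/B and 8 for C/D. In the deposited counts the names of both repeats share a tag that the labels do not explain. They were treated as separate experiments, and whether they came from the same experiment is not known. B-ALL alone was not sampled at TP2, so NK exposure and time in culture cannot be told apart at TP2. Libraries 2 and 3 of line C agreed within sampling noise in experiment 9.5 TP2 NK and in 9.5.1 alone, and each such pair was counted as 1 sample in the fits, while the rule, and the values and n given below, count every library. With these pairs averaged the 3 peaks still passed the rule, together with 2 more.

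Il17ra encodes the receptor subunit shared by several interleukin-17 cytokines and signals towards NF-kappaB. Ciao2a encodes a component of the cytosolic machinery that assembles iron-sulfur clusters. Ntng2 encodes netrin-G2, a membrane-anchored adhesion protein best known from neurons. Peaks inside a gene can mark enhancers, internal promoters or other regulatory DNA, and accessibility alone does not say which gene, if any, a peak regulates.

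The sequences at the centre of each peak show what DNA the differences concern. Each line gives 300 bases of the plus strand of GRCm38, 5′ to 3′, at chr6:120473630-120473929 for Il17ra, chr9:66131525-66131824 for Ciao2a and chr2:29246416-29246715 for Ntng2. Capitals mark a match to 1 of the 18 motifs searched.
Il17ra: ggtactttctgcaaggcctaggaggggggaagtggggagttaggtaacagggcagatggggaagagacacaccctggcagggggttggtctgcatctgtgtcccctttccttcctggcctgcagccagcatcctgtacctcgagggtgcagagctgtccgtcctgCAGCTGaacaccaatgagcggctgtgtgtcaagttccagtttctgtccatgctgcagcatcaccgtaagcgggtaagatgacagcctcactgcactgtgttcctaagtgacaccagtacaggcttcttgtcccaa
Ciao2a: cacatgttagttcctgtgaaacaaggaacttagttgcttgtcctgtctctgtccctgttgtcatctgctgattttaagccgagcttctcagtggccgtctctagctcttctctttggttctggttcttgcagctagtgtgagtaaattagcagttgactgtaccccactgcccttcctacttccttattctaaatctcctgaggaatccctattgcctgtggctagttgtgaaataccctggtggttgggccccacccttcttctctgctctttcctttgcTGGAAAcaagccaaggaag
Ntng2: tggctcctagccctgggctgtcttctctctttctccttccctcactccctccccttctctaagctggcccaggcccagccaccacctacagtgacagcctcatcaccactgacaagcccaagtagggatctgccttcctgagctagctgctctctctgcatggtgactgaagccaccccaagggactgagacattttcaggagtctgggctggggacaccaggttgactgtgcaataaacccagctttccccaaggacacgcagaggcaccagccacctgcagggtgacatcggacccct

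The Il17ra peak spans chr6:120473463-120474095 (633 bases) and lies 10.5 kb downstream of the gene's coding start site. It covers the whole of exon 4, 113 coding bases at chr6:120473754-120473866, and the intron on either side. A short noncoding Il17ra transcript, Il17ra-202, starts inside the peak at base 120473603. The Ciao2a peak spans chr9:66131580-66131769 (190 bases) and is intronic, 5.06 kb downstream of the gene's start site. Only 0.173% of the eligible peaks are shorter, so its window above reaches past both of its ends. The Ntng2 peak spans chr2:29245309-29247821 (2513 bases), is intronic in Ntng2 and is centred 1.48 kb downstream of the nearest of the gene's annotated start sites. It also lies wholly inside an exon of 6530402F18Rik, a noncoding transcript of the same strand, and without strand the signal cannot be assigned to either gene.

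Most late gains of C and D were shared with A and B. Both C and D reached 0.58 at 446 of the 110249 eligible peaks (0.405%). At 351 of these A and B reached 0.58 as well, at 53 exactly 1 of them did, and at 39 neither did but at least 1 was at 0.2 or above. This left the 3 peaks described here, 0.00272% of those eligible. The mirror rule, with gains in A and B and differences under 0.2 in C and D, chose 214 peaks (0.194%). Over all eligible peaks the median difference was 0.13 in A, 0.01 in B, 0.03 in C and -0.03 in D.

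**Figure D1:**
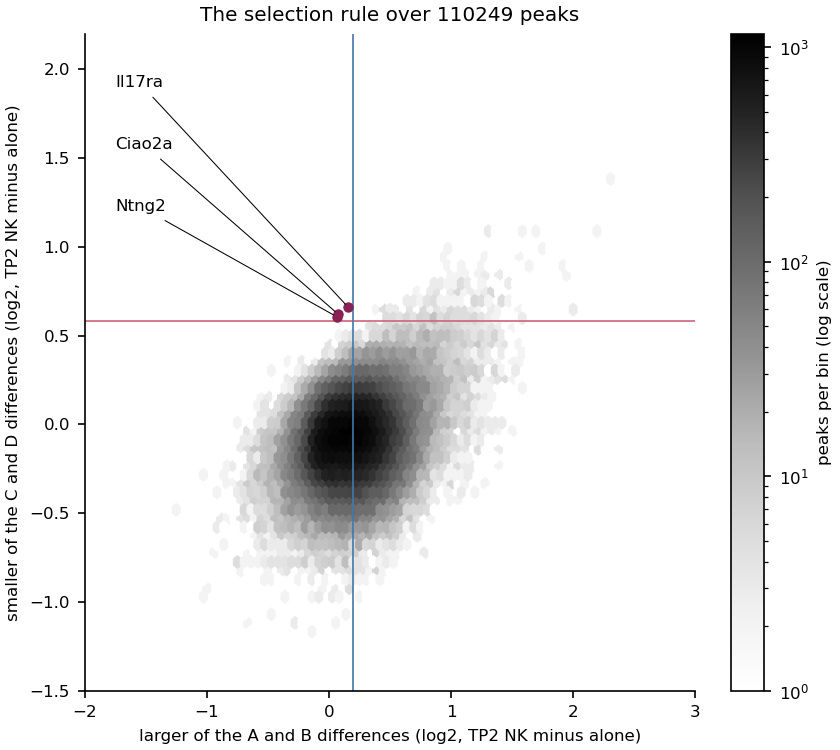
Each eligible peak by the larger of its A and B differences (x axis) and the smaller of its C and D differences (y axis), both TP2 NK minus B-ALL alone in log2(CPM + 0.5); shading counts peaks per bin on a log scale, and the lines mark 0.2 and 0.58. The 3 chosen peaks (dark red points) sit just above the horizontal line and left of the vertical one, at the edge of the cloud.

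All 3 peaks were close to the thresholds. The smaller of the C and D differences was 0.66 for Il17ra, 0.62 for Ciao2a and 0.61 for Ntng2. The 3 nearest peaks outside the rule were alike. A peak at chr6:89628004-89628513, nearest to Txnrd3, had differences of 0.70 in C and 0.99 in D but 0.21 in B. A peak at chr13:52636212-52636886, within Syk, had 0.57 in C and 0.61 in D, and a peak at chr10:79806997-79808496, within Palm, had 0.56 and 0.75. In all, 6 peaks missed the rule by less than 0.05 and 22 by less than 0.1. Among 9 other ways of computing the rule, Il17ra stayed in under 8, Ntng2 under 6 and Ciao2a under 5. Without experiment 9.7 none of the 3 passed, since the difference in C was 0.45 for Il17ra, 0.55 for Ciao2a and 0.51 for Ntng2, and 12 other peaks did. Whether the late difference itself differs between C/D and A/B was not tested, since the rule fixed it.

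The Il17ra peak had the largest late difference of the 3. In B-ALL alone the lowest, median and highest library of C stood at 3.79, 6.34 and 8.85 CPM (n = 12), and in TP2 NK at 5.32, 10.9 and 15.7 CPM (n = 12). In D the same values were 3.27, 5.38 and 8.55 CPM alone (n = 11) and 5.98, 10.5 and 16.8 CPM in TP2 NK (n = 12). The medians of both lines were thus higher in TP2 NK, while the ranges overlapped when experiments were pooled. Within an experiment they mostly did not overlap. Every TP2 NK library lay above every B-ALL alone library in 7 of 8 C/D combinations and in 0 of 6 A/B combinations. The rule used these libraries, and the share of all eligible peaks separated in this way was not computed, so the counts are description only. In A the libraries ranged from 4.25 to 15.4 CPM alone (median 7.94, n = 9) and from 5.33 to 14.3 CPM in TP2 NK (median 8.53, n = 9). In B they ranged from 4.97 to 11.1 CPM alone (median 8.12, n = 9) and from 4.25 to 16.1 CPM in TP2 NK (median 10.2, n = 9). C and D were lower than A and B for B-ALL alone and near them in TP2 NK. The C/D median was 5.54 CPM against 8.03 CPM in A/B for B-ALL alone, and 10.8 CPM against 9.22 CPM in TP2 NK. The rule used these libraries and favours low B-ALL alone levels in C/D, so these level gaps are description only.

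By line, the Il17ra difference of TP2 NK from B-ALL alone was 0.66 in C and 1.001 in D on the log2 scale, or 1.58-fold and 2.001-fold, against 0.04 in A and 0.16 in B. By combination it lay between 0.34 and 1.27 in C/D (mean 0.85 ± 0.36, SD, n = 8) and between -0.22 and 0.52 in A/B (mean 0.10 ± 0.26, SD, n = 6). All 8 C/D combinations were above 0, and 6 reached 0.58. The 2 that did not were line C in experiments 9.5.1 and 9.6, at 0.34 and 0.35. The highest A/B combination was line B in experiment 9.7, at 0.52, so the C/D and A/B ranges overlapped.

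The Ciao2a peak is a weak one, with a mean of 1.42 CPM and 1 to 41 read pairs per library (median 10.0). In C the lowest, median and highest library stood at 0.295, 1.28 and 2.46 CPM alone and at 1.07, 2.18 and 3.49 CPM in TP2 NK. In D they stood at 0.425, 1.051 and 2.29 CPM alone and at 1.48, 2.36 and 3.49 CPM in TP2 NK. Medians were higher in TP2 NK in both lines and the ranges overlapped. Summed over libraries, C had 128 read pairs alone (1.32 CPM, 95% exact Poisson interval 1.10 to 1.57) and 220 in TP2 NK (2.273 CPM, 1.98 to 2.59). D had 90 read pairs alone (1.19 CPM, 0.959 to 1.47) and 226 in TP2 NK (2.34 CPM, 2.04 to 2.66). These intervals cover counting error only. A and B stood near 1 CPM, with medians of 1.23 and 0.961 CPM alone and 1.36 and 0.989 CPM in TP2 NK.

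The Ciao2a difference was 0.62 in C (1.54-fold) and 0.75 in D (1.68-fold), against 0.08 in A and 0.06 in B. By combination it ranged from -0.29 to 1.25 in C/D (mean 0.66 ± 0.52, SD, n = 8) and from -0.20 to 0.39 in A/B (mean 0.07 ± 0.24, SD, n = 6). It was above 0 in 7 of 8 C/D combinations and at 0.58 or above in 6. Line C in experiment 9.5 went the other way (-0.29), where B-ALL alone was already high at 2.23 CPM, and line D in experiment 9.6.1 was at 0.09. All TP2 NK libraries lay above all B-ALL alone libraries in 6 of 8 C/D and 0 of 6 A/B combinations, again without a share over all eligible peaks.

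The Ntng2 peak was the strongest of the 3, with a mean of 16.3 CPM. In C the lowest, median and highest library stood at 7.60, 12.3 and 18.99 CPM alone and at 11.2, 17.99 and 28.6 CPM in TP2 NK. In D they stood at 7.35, 14.2 and 19.6 CPM alone and at 13.5, 21.6 and 31.3 CPM in TP2 NK. Line A differed in the other direction, with a median of 17.9 CPM alone (11.9 to 30.0) and 14.8 CPM in TP2 NK (8.28 to 25.1). In B the medians were 16.2 and 17.4 CPM. As at Il17ra, B-ALL alone was lower in C/D (median 12.7 CPM) than in A/B (17.7 CPM), and in TP2 NK it was C/D that was higher (19.4 against 15.5 CPM). The rule used these libraries here too, and the level gaps are description only.

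The Ntng2 difference was 0.61 in C (1.52-fold), 0.67 in D (1.60-fold), 0.07 in B and -0.43 in A. By combination it ran from 0.16 to 1.20 in C/D (mean 0.64 ± 0.40, SD, n = 8) and from -0.53 to 0.13 in A/B (mean -0.18 ± 0.28, SD, n = 6). The lowest C/D combination was thus just above the highest A/B combination, at 0.16 against 0.13. The rule used these libraries, and the share of all eligible peaks separated in this way was not computed, so this is description only. All 8 C/D combinations were above 0, but only 4 reached 0.58. Only 4 had every TP2 NK library above every B-ALL alone library, again without a share over all eligible peaks. The repeats gave the smaller differences here, 0.16 for line C in experiment 9.5.1 and 0.33 for line D in 9.6.1, together with line D in 9.7 at 0.22.

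**Figure D2:**
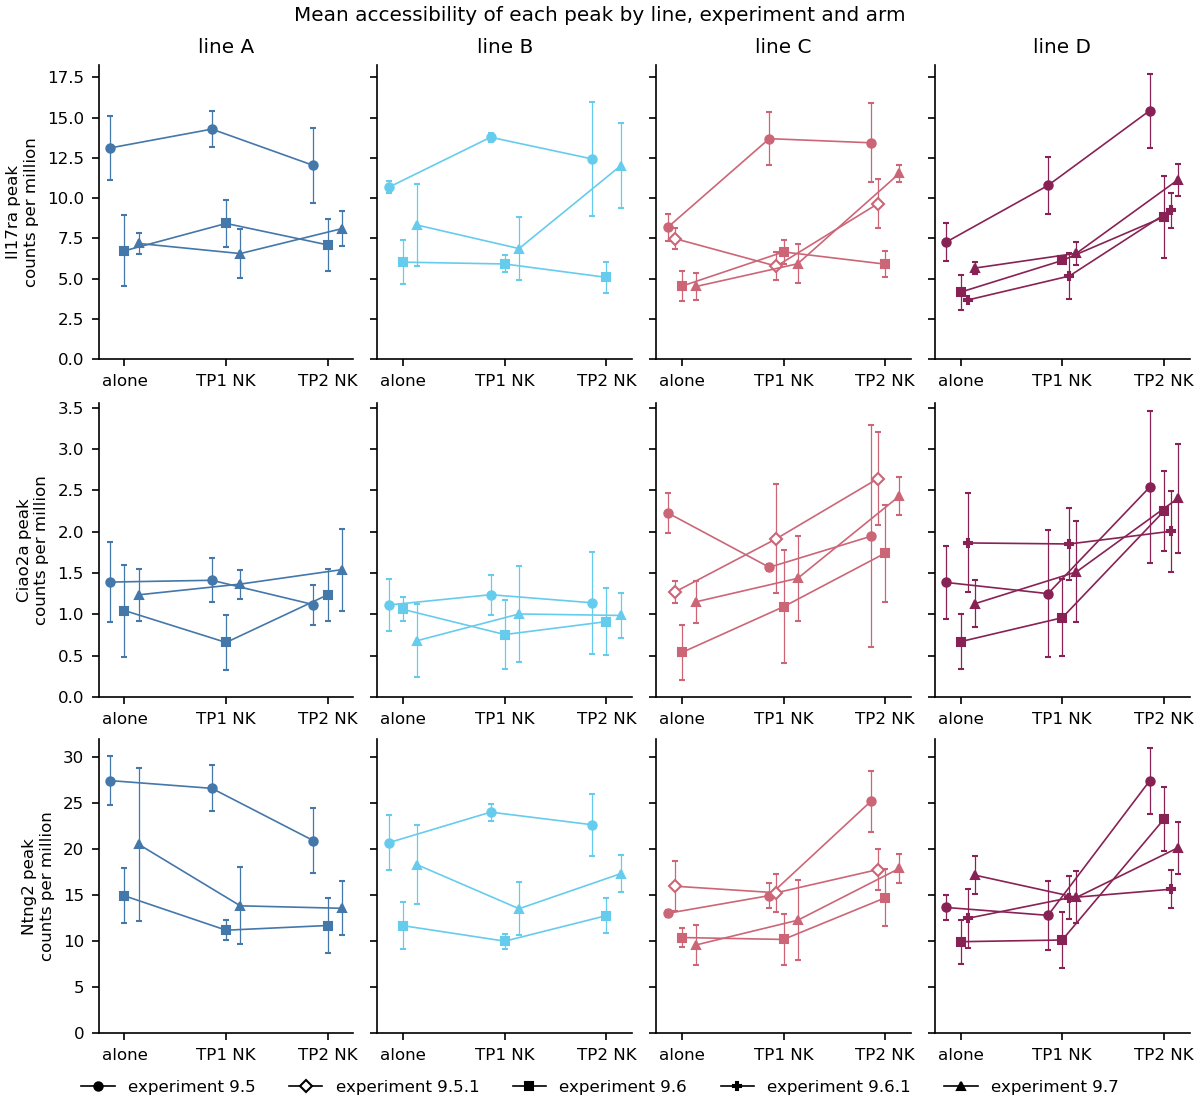
Mean CPM (y axis) of the Il17ra, Ciao2a and Ntng2 peaks in B-ALL alone, TP1 NK and TP2 NK (x axis) in lines A to D; each point is the mean of the 3 libraries (2 for D 9.6.1 alone) of an experiment, bars are the SD, and open diamonds are repeat 9.5.1. In lines C and D most TP2 NK means lie above TP1 NK, except at Il17ra for line C in experiments 9.5 and 9.6, while A and B show no common direction, and experiment 9.5 lies highest in all lines at Il17ra.

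Experiment 9.5 held the highest Il17ra levels in every line. Its B-ALL alone means were 13.1 CPM in A, 10.7 in B, 8.19 in C and 7.29 in D. The labels name the experiments but do not call them batches, and they were treated as possible batches here, so the differences were also read within each. Averaged over C and D, the TP2 NK difference at Il17ra was 0.85 in experiment 9.5, 0.67 in 9.6 and 1.09 in 9.7, and over A and B it was 0.02, -0.06 and 0.34. At Ciao2a the C/D values were 0.19, 1.18 and 0.83 and the A/B values -0.11, 0.01 and 0.31. At Ntng2 the C/D values were 0.95, 0.83 and 0.55 and the A/B values -0.13, -0.11 and -0.29. C/D was thus above A/B in all 3 experiments at each peak, by a selection that used the same libraries.

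TP1 NK libraries entered the rule only through the mean of at least 1 CPM, not through its differences, and give the levels earlier in co-culture. The comparison with B-ALL alone shares the B-ALL alone libraries with the rule, so its values are a description. In the edgeR quasi-likelihood fit of C/D, with Benjamini-Hochberg adjustment over 111890 peaks, 1.89% of all peaks were called, that is, had an adjusted p of 0.05 or less and a log2 fold change of 0.58 or more in size. An adjusted p of 0.05 or less at any fold was reached by 8.17%. None of the 3 peaks was called, 0 of 3 also with DESeq2, and 1 had an unadjusted p under 0.05. That peak was Il17ra, with a log2 fold change of 0.44 ± 0.10 (SE, adjusted p = 0.00103), against a median of -0.03 over all peaks. It was above 0 in 7 of 8 C/D combinations, where line C in experiment 9.5.1 was at -0.35. In experiment 9.5 alone it was called, at 0.70 (adjusted p = 0.000297), with 0.63 in 9.6 and 0.33 in 9.7, neither of which passed. With the counts of each combination and arm summed, the Il17ra fold change was 0.45 but did not pass (adjusted p = 0.140), nor did it in line C alone (0.42, adjusted p = 0.117).

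Ciao2a and Ntng2 did not pass at TP1 in C/D. The fitted log2 fold change was 0.25 ± 0.16 (SE, adjusted p = 0.353) for Ciao2a and 0.09 ± 0.09 (SE, adjusted p = 0.566) for Ntng2. In A/B 5.99% of all peaks were called (21.9% by adjusted p at any fold) and again 0 of 3, with DESeq2 also 0 and 1 with an unadjusted p under 0.05. Here it was Ntng2, at -0.33 ± 0.10 (SE, adjusted p = 0.0101), below 0 in 5 of 6 A/B combinations. This rested on replicate 1, without which it was -0.10 (adjusted p = 0.658). It did not pass with summed counts (-0.30, adjusted p = 0.0903), without experiment 9.7 (-0.21, adjusted p = 0.0926), in line B alone (-0.20, adjusted p = 0.400) or in any experiment alone (-0.07 in 9.5, -0.35 in 9.6 and -0.57 in 9.7). Il17ra stood at -0.01 ± 0.11 (SE, adjusted p = 0.971) and Ciao2a at -0.08 ± 0.18 (SE, adjusted p = 0.825).

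**Figure D3:**
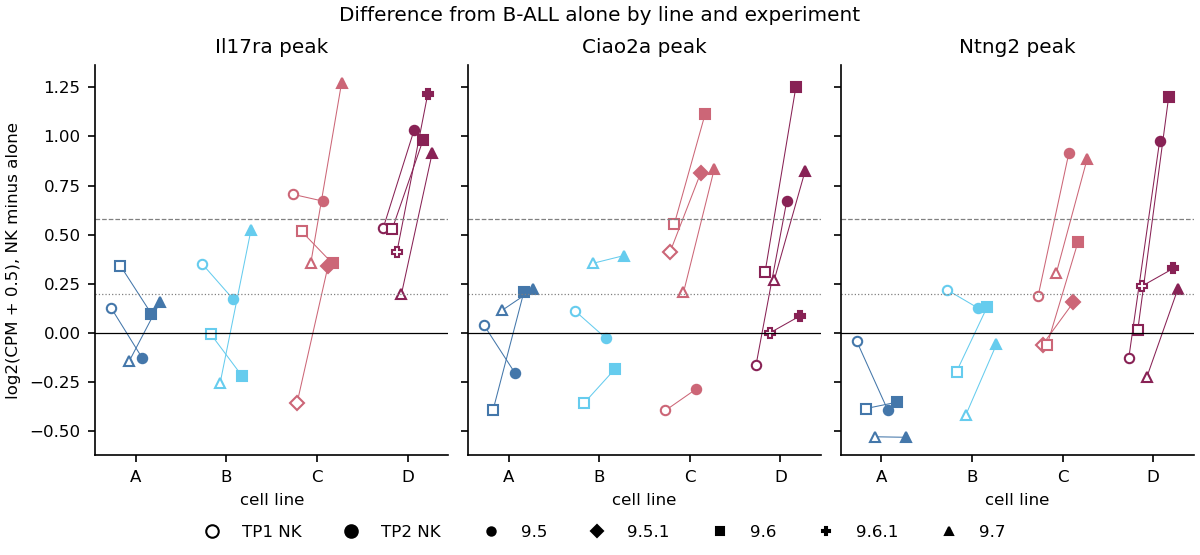
Difference from B-ALL alone in log2(CPM + 0.5) (y axis) by line (x axis) for each experiment, TP1 NK as open and TP2 NK as filled symbols joined by a line; the dashed and dotted lines mark 0.58 and 0.2. At Ntng2 all filled C and D symbols lie above their open ones, and the same holds at Ciao2a, whereas at Il17ra line C has 2 experiments (9.5 and 9.6) in which TP2 NK is below TP1 NK.

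At each peak the mean step from TP1 to TP2 NK in C/D exceeded that from B-ALL alone to TP1 NK, least so at Il17ra. In C/D TP2 NK exceeded TP1 NK in 8 of 8 combinations at both peaks, by a mean of 0.61 ± 0.39 (SD) at Ntng2 and 0.52 ± 0.31 (SD) at Ciao2a. At Il17ra it did so in 6 of 8, by 0.49 ± 0.39 (SD). TP1 NK lay on average 0.36 ± 0.33 (SD) above B-ALL alone at Il17ra, 0.15 ± 0.31 (SD) at Ciao2a and 0.03 ± 0.19 (SD) at Ntng2. The Il17ra peak thus held part of its difference at TP1, and Ntng2 at TP1 was near its level in B-ALL alone. In A/B TP2 NK exceeded TP1 NK in 2 of 6 combinations at Il17ra, 4 at Ciao2a and 3 at Ntng2. These differences use the TP2 NK or the B-ALL alone libraries of the rule and carry no test. Low B-ALL alone values in C and D help a peak pass the rule and also raise its TP1 NK difference.

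Levels within TP1 NK use no library of the rule's differences. There C/D was compared with A/B, with experiment as a term. Of all peaks 10.7% were called (33.6% by adjusted p at any fold) and of the 3 peaks 0, also 0 with DESeq2, with an unadjusted p under 0.05 for 1. Ntng2 was lower in C/D by -0.33 ± 0.10 on the log2 scale (SE, edgeR adjusted p = 0.00566), short of the fold required. It was called in experiment 9.5 alone, at -0.74 (adjusted p = 1.22e-05), whereas experiments 9.6 and 9.7 gave -0.04 and -0.10. Without replicate 2 the pooled value was -0.21 and did not pass (adjusted p = 0.224). Median TP1 NK levels at Ntng2 were 13.5 CPM in C/D (7.03 to 17.3, n = 24) and 15.2 CPM in A/B (9.04 to 29.5, n = 18), with overlapping ranges. Il17ra differed by -0.15 ± 0.08 (SE, adjusted p = 0.147), with medians of 6.30 CPM (4.14 to 15.6) in C/D and 8.26 CPM (4.81 to 15.6) in A/B. Ciao2a differed by 0.31 ± 0.17 (SE, adjusted p = 0.164), with medians of 1.51 and 1.20 CPM, and was called only without replicate 2, at 0.62 (adjusted p = 0.0289).

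The sister lines C and D were compared with each other in TP1 NK in the same way. Of all peaks 1.46% were called (3.12% by adjusted p at any fold) and of the 3 peaks 0, also 0 with DESeq2 and 0 at an unadjusted p under 0.05. The fitted log2 fold change of D against C was -0.18 ± 0.11 (SE, adjusted p = 0.381) at Il17ra, -0.19 ± 0.24 (SE, adjusted p = 0.720) at Ciao2a and -0.03 ± 0.13 (SE, adjusted p = 0.936) at Ntng2. In both between-line fits the repeats 9.5.1 and 9.6.1 were entered as separate experiments, so they hold 1 line each and inform only the spread. A and B, like C and D, share a parental line. The methods describe the 3 libraries of a group as biological replicates of 1 co-culture experiment. P-values thus measure the spread between cultures of these lines, entered as independent. In C/D against A/B that spread includes differences between sister lines, since line was not a term. No fit had a term for differences that vary between experiments.

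**Figure D4:**
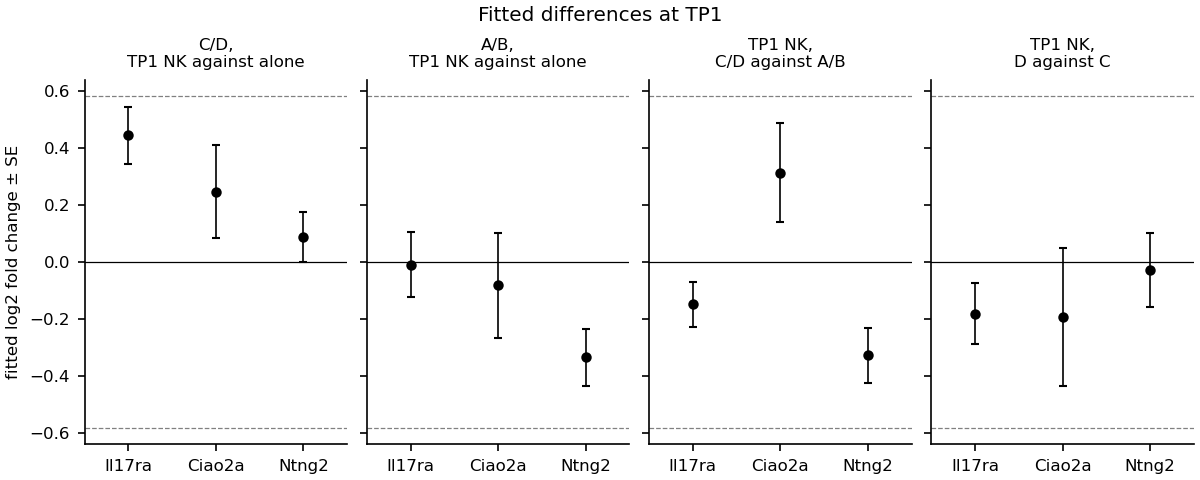
Fitted log2 fold change (y axis) with its standard error of the Il17ra, Ciao2a and Ntng2 peaks in the 4 comparisons at TP1; dashed lines mark 0.58 and -0.58. No point lies beyond a dashed line, Il17ra is highest in C/D against alone (0.44) and Ntng2 lowest in A/B against alone (-0.33).

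The peaks nearby were examined for the same differences. Of the 17 other eligible peaks within 50 kb of the Il17ra peak, the 16 near Ciao2a and the 20 near Ntng2, 0 reached 0.58 in both C and D, which is near the share of 0.405% over all eligible peaks. The Il17ra promoter peak, at chr6:120463089-120464395, had TP2 NK differences of -0.15 in C and -0.17 in D, and of -0.20 in A and -0.15 in B. A pair of stronger intronic peaks lies between them, at 47.7 and 49.1 CPM, and stood at 0.17 and 0.13 in C, 0.18 and 0.10 in D, and -0.34 and -0.26 in A. The peak over the start sites of Ciao2a and Snx1, a sorting nexin gene, had 67.2 CPM and differences of -0.15 in C, -0.03 in D, -0.21 in A and -0.04 in B. A peak over the outermost Ntng2 start site at chr2:29251273-29254052 had 73.8 CPM and differences of 0.12 in C, 0.16 in D, -0.19 in A and -0.10 in B. The Ntng2 promoter peak thus had the same signs as the member in C, D and A at smaller size, and the Il17ra and Ciao2a promoter peaks did not.

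**Figure D5:**
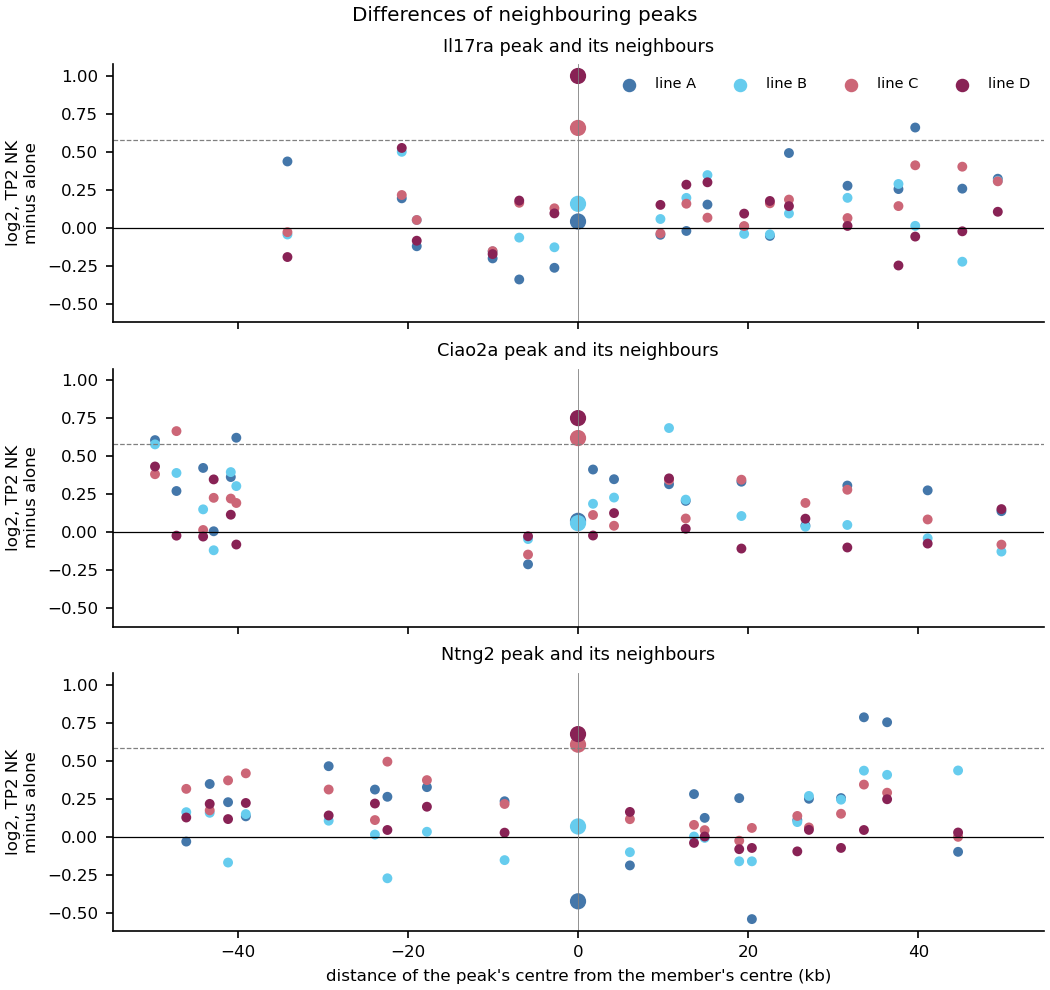
TP2 NK minus B-ALL alone in log2(CPM + 0.5) (y axis) of every eligible peak within 50 kb (x axis, distance between centres in the direction of rising coordinates), by line; large points are the Il17ra, Ciao2a and Ntng2 peaks. Only the large points of C and D both lie above the dashed line at 0.58.

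Peak calls made by the authors in each library alone gave the same order of strength. The Ntng2 peak overlapped a called broad peak in 89 of 125 libraries, Il17ra in 49 and Ciao2a in 1. In C/D the Il17ra peak was called in 1 of 23 B-ALL alone, 6 of 24 TP1 NK and 18 of 24 TP2 NK libraries. In A/B it was called in 5, 9 and 10 of 18. The Ntng2 peak was called in 8 of 23, 18 of 24 and 21 of 24 C/D libraries and in 14 of 18 A/B libraries of each arm. The Ciao2a call was in a C/D TP2 NK library. These calls come from the same libraries as the counts and depend on depth, which ranged from 3083547 to 13580746 counts per library. The share of all peaks called in each arm was not computed, so a general rise in calls cannot be told apart from these counts. At Ntng2 in C/D the calls rose from B-ALL alone to TP1 NK while the median moved only from 12.7 to 13.5 CPM.

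The 3 peaks shared no motif among the 18 searched on both strands of the central 300 bases. The E-box letters CAGCTG stood in the Il17ra window, inside exon 4, and in 20.1% of eligible peaks. The NFAT letters TGGAAA stood in the Ciao2a window, just past the end of the peak, and in 21.7% of eligible peaks. The Ntng2 window held none. The AP-1 (TGANTCA), ISRE (GAAANNGAAA), GAS (TTCNNNGAA), NF-kappaB (GGGANNTTCC) and ETS-IRF (GGAANNGAAA) letters were in none of the 3 windows, and in 9.1%, 3.92%, 8.35%, 1.12% and 3.36% of eligible peaks. The window covers only part of the 2513-base Ntng2 peak, which held 6 of the motifs over its whole length. AP-1 and GAS were among them, present in 34.1% and 33% of whole eligible peaks. The ISRE, NF-kappaB and ETS-IRF letters were in none of the 3 whole peaks. GC content was 56.7% at Il17ra, 47.7% at Ciao2a and 58.7% at Ntng2, against a median of 50.3%. They lie on chromosomes 6, 9 and 2, whose median difference over all eligible peaks was 0.02 to 0.04 in C and -0.05 to -0.01 in D.

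None of the 3 genes belongs to the 13 gene lists examined, which include interferon, MHC, NF-kappaB, AP-1 and B cell genes. Over all peaks tested at TP1, 1.61% were called higher and 0.279% lower in C/D, and 4.94% and 1.05% in A/B. Promoter peaks of IFN-gamma-induced GTPases, classical interferon targets, were called higher at TP1 in 9 of 20 in C/D (median log2 fold change 0.54) and 10 of 20 in A/B (0.61). For antiviral interferon-stimulated genes it was 6 of 39 (median 0.39) and 8 of 39 (0.32). Cell death genes and their inhibitors had 4 of 20 and 5 of 20, and interferon signalling genes 1 of 21 in each. TNF and NF-kappaB pathway genes, where IL-17 receptor signalling leads, had 0 of 17 in either direction in both fits, with medians of 0.08 and -0.18. B cell identity genes had 0 of 32 in C/D and 1 of 32 lower in A/B. MHC class II genes had 0 of 12 in C/D and 2 of 12 higher in A/B. The MHC class I, AP-1 and ATF, STAT5, lymphoid factor, adhesion and housekeeping lists had 0 called in both. In lists of this size, counts of 0 or 1 are near the shares over all peaks.

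Markers of other cells were checked because NK cells were present in culture. The summed level of 19 NK marker promoter peaks had a median of 83.4 CPM (71.9 to 95.8) in C/D alone, 88.8 CPM (71.8 to 108) in TP1 NK and 84.9 CPM (71.7 to 107) in TP2 NK. In A/B the medians were 81.1, 96.8 and 86.7 CPM. Of the NK marker promoter peaks tested at TP1 against B-ALL alone, 0 of 16 were called higher in C/D and 2 of 16 in A/B. For T cell markers it was 1 of 10 and 2 of 10, and for myeloid markers 0 of 8 and 1 of 8. Over all peaks 1.61% and 4.94% were called higher. The NK marker genes Gzma, Klrb1c and Prf1 did not move together. Gzma, an NK and T cell granzyme, stood at a median of 0.523, 0.863 and 0.751 CPM over the C/D arms and 0.704, 1.33 and 1.26 CPM over the A/B arms. At Klrb1c the medians were 7.20, 6.54 and 6.40 CPM in C/D and 7.71, 8.18 and 7.87 CPM in A/B. At Prf1 they were 3.10, 3.29 and 3.27 CPM in C/D and 2.25, 3.26 and 2.22 CPM in A/B. Of the NK, T cell and myeloid marker peaks none was at 0 throughout an arm. T cell markers had medians of 94.3, 96.2 and 108 CPM in the C/D arms and 92.9, 95.2 and 100.5 CPM in A/B, and myeloid markers 39.1, 43.4 and 43.9 CPM in C/D and 31.4, 41.9 and 37.8 CPM in A/B. B lineage markers were high in every arm, with medians of 469, 500 and 540 CPM in the C/D arms and 559, 513 and 559 CPM in A/B. Their median thus also rose from B-ALL alone to TP2 NK in C/D and not in A/B. The part of other cells in the late differences was not tested.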

How the data were processed

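The members, gene lists and motifs were chosen with earlier results of these data known. The authors aligned paired reads to GRCm38 with STAR, marked duplicates with Picard 2.27.4 and called broad peaks per library with MACS2 2.2.7.1, for which the deposited lists give −log10 q-values. The deposited raw counts are read pairs per consensus peak from featureCounts 2.0.1, where a pair counts for each peak overlapping it by a fraction of 0.2 or more. The study's methods name a GRCh38 blacklist for mouse data, and no Tn5 shift is recorded. CPM was computed from column sums. Fits used edgeR 4.0.16 (quasi-likelihood, TMM, experiment or combination as a term, mean CPM of 1 or more), with DESeq2 1.42.0 as an alternative, and were tested on simulated data. Windows came from GRCm38 and gene models from GENCODE M21. Named were the 3 members, the 3 peaks nearest outside the rule and promoter peaks nearby.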

Additional observations from a re-analysis of the deposited data

Results flagged for a closer look

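In line A the highest of the 9 TP2 NK libraries at the Ciao2a peak, at 2.09 CPM, stood apart from the others, with a gap of 0.510 of the group's range. Of 48 groups tested this was the only such library or combination, and chance gives about 1 in 20. At the Ntng2 peak every experiment of line A was lower in TP2 NK than in B-ALL alone while every experiment of C and of D was higher, a difference in means of -1.03 against C and -1.11 against D. The rule used these values, and the difference was not tested.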

How the results depend on the processing

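Among the other ways to compute the rule, 5 peaks passed with near-identical libraries averaged, all 3 members among them. Without experiment 9.7, 12 passed, none of them Il17ra, Ciao2a or Ntng2, while 3 to 11 passed without each replicate in turn. A pseudocount of 1 left 3 peaks (Ciao2a out), a mean CPM of 2 left 2, TMM sizes gave 4 and a mean over combinations 3. At TP1, 0 of 3 peaks were called in each comparison, and this count was 1 in experiment 9.5 alone for C/D against alone (Il17ra, 0.70, adjusted p = 0.000297) and for C/D against A/B (Ntng2, -0.74), and 0 to 1 for C/D against A/B without each replicate (Ciao2a without replicate 2). With a replicate block it stayed at 0 in all 4 fits. Same-numbered replicates shared only a number, since the median correlation of their deviations lay between -0.04 and 0.02 over the fits. For D against C the count over all peaks went from 1633 to 1107 with the block, 1052 with summed counts, 731 to 2282 without each replicate, and 4 and 29 in experiments 9.6 and 9.7 alone. In C/D against alone 9170 peaks were called in experiment 9.7 alone against 2110, in A/B against alone 12795 in experiment 9.5 alone against 6705, and in C/D against A/B 21656 in experiment 9.5 alone against 11972. Without a filter the counts were 3515 for C/D against alone and 19323 for C/D against A/B. The cause was not tested.

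Signs that turned all belonged to values that did not pass. In A/B against alone, Ciao2a (-0.08) ranged from -0.34 to 0.14 without each replicate and was 0.26 in experiment 9.7 alone and 0.014 in line B alone. There Il17ra (-0.01) ranged from -0.032 to 0.063 without each replicate and was 0.010 with summed counts, 0.091 without experiment 9.7, 0.092 in experiment 9.5 alone, 0.14 in 9.6 alone and 0.0079 in line A alone. In C/D against alone, Ciao2a was -0.31 in experiment 9.5 alone. For D against C, Il17ra was 0.081 in experiment 9.7 alone, and Ntng2 ranged from -0.21 to 0.21 without each replicate and was 0.20 in experiment 9.7 alone. Across alternatives Il17ra in C/D against alone kept its sign, between 0.33 and 0.70, and Ntng2 in A/B against alone between -0.57 and -0.07, but their adjusted p did not stay at 0.05 or less in every alternative: with summed counts it was 0.140 and 0.0903. Motifs present in at least 1 peak numbered 2 of 18 in 300 bases, 4 in 500 and 6 in the whole peaks. At 1 to 41 read pairs per library, depth limits Ciao2a most.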
